A study of Mus musculus with 8 samples.

Results

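The genes Afp, Ttr, Rbp4, Trf, Apoa1, Apoa4, Apob, Apoe, Amn and Cubn encode secreted and uptake proteins of the visceral endoderm and were followed in whole mouse embryos at embryonic day 6.5. They were taken by symbol from a table of 19950 genes, all 10 were found, and all 10 passed the filter on low values. The mutant group held 4 embryos with the genotype Axin1;Axin2 mutant and the other group 4 WT embryos. The labels name neither the alleles nor the strain, the litter or any agent used to delete the genes. Axin1 and Axin2 encode related scaffold proteins that keep β-catenin low by promoting its breakdown, and the series concerns their role in WNT signalling as mesoderm forms. Within each genotype the embryos are numbered 1, 2, 4 and 5, as in the column names.

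The visceral endoderm is the epithelium that wraps the early postimplantation embryo. It takes up maternal proteins from the surrounding fluid at its apical surface and secretes serum proteins and lipoproteins, much as liver and yolk sac do later. The secreted side of this work is represented here by the carriers Afp, Ttr, Rbp4 and Trf and by the apolipoproteins Apoa1, Apoa4, Apob and Apoe. The uptake side is represented by Cubn (cubilin), a large endocytic receptor, and Amn (amnionless), the membrane protein that carries cubilin to the cell surface.

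Among the 10 genes, Afp fell in the mutants, 0 rose (0 also with edgeR and DESeq2, and 0 at an unadjusted p under 0.05), and 9 did not pass the test, with limma and Benjamini-Hochberg adjustment. At an unadjusted limma p under 0.05, 3 were lower, Afp, Trf and Apoa4. With edgeR 1 was lower and with DESeq2 2. Afp averaged 3248 ± 635 scaled counts in the mutants and 6681 ± 536 in WT (SD, n = 4 each), a 2.08-fold decrease with a 95% interval of 1.70 to 2.54. A scaled count is the number of reads of a gene divided by 1 size factor per library. The remaining 9 genes had log2 fold changes between -0.70 for Trf and 0.21 for Apoe. The 10 genes summed to 230543, 267955, 194244 and 187704 in mutant replicates 1, 2, 4 and 5, against 203344, 248380.1, 191335 and 219987 in WT replicates 1, 2, 4 and 5. These sums overlapped between the genotypes and averaged 220112 ± 37046 in the mutants and 215762 ± 24716 in WT.

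Of the 15600 genes tested, 15.6% passed the threshold, 8.03% higher and 7.55% lower in the mutants, so the share among the 10, 1 gene, is near that background. Afp and Trf had no overlap between the genotypes, 2 of the 10, beside 22.4% of all tested genes. The median log2 fold change was -0.16 over the 10 genes and -0.00 over all tested genes, and 7 of the 10 were negative against 50.2% of all tested genes. For the 9 genes that did not pass, the 95% intervals of the fold, mutant over WT, reached down to 0.439 and up to 1.46, and differences within them are not excluded. The embryos were sequenced whole, so fewer cells of a type and less RNA per cell cannot be told apart.

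Reads assigned to genes numbered 26615732 to 36778164 per library, and Trf, the lowest of the 10, still had at least 299 reads in each library. Axin1, one of the mutated genes, was lower in the mutants (1996 ± 204 scaled counts) than in WT (4565 ± 1081; limma adjusted p = 0.00269), while Axin2 had 370.5 ± 113 in the mutants and 266 ± 32.6 in WT (adjusted p = 0.19). In WT replicate 4 Axin1 was at 2963, below the other WT embryos (4884 to 5274) and above the highest mutant (2203). Y-linked genes summed to at least 5243 scaled counts in every mutant library and in WT replicates 1 and 4, and to at most 14.2 in WT replicates 2 and 5. Since the litters are not known, p-values measure only the spread between these embryos.

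The promoters of 3 of the genes are shown because Afp is the gene that fell and Apob and Cubn are genes that did not pass the test and hold letters of the TCF/LEF motif, through which canonical WNT signalling acts on DNA. Each is 300 bases, from 250 before to 50 after the transcription start, written 5′ to 3′ on the gene's strand, from RefSeq on GRCm38.p6: Afp at chr5:90490464-90490763 (plus strand), Apob at chr12:7977427-7977726 (plus strand) and Cubn at chr2:13491827-13492126 (minus strand). Capitals mark matches on either strand to 6 motifs. For TCF/LEF factors CTTTGAT was searched, and its variant that ends in another base, CTTTGAA, as well. The letters GTTAAT were searched too, for the nuclear receptor HNF4 the letters CAAAGT, for FOXA factors TGTTTAC, and for the zinc finger factors Gata4 and Gata6 the letters AGATAA.
Afp: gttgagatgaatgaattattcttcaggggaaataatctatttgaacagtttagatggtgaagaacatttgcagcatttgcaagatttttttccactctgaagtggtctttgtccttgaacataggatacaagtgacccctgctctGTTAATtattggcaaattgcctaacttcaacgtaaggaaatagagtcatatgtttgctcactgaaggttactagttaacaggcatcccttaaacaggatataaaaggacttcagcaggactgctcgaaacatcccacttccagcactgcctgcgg
Apob: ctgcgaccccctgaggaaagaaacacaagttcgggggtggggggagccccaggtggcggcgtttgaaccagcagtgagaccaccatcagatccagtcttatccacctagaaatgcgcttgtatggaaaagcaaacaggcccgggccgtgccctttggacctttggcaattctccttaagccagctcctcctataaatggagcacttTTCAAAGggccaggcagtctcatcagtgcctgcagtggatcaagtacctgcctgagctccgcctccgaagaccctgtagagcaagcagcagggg
Cubn: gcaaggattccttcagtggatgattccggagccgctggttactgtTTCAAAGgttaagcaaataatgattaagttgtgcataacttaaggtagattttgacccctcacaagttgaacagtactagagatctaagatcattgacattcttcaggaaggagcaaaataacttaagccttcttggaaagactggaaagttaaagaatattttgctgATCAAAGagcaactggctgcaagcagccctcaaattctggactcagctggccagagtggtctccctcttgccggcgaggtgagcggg

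RefSeq entries were found for 8 of the 10 genes, with 11 promoter windows, and Ttr and Trf had none. The window of Afp held GTTAAT on the plus strand, starting 105 bases before the start site, and no other searched motif. GTTAAT was in 7.1% of the 32851 windows in the table. CTTTGAT was in windows of Cubn and Rbp4 and in 3.73% of all windows, and CTTTGAA in windows of Apob and Cubn and in 5.14% of all. CAAAGT was found for Apoa4 (14.4% of all windows), TGTTTAC for Apoe and Rbp4 (3.65%) and AGATAA for none of the 8 (11.2%). Some motifs share letters, so a base can belong to more than 1 match.

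**Figure D1:**
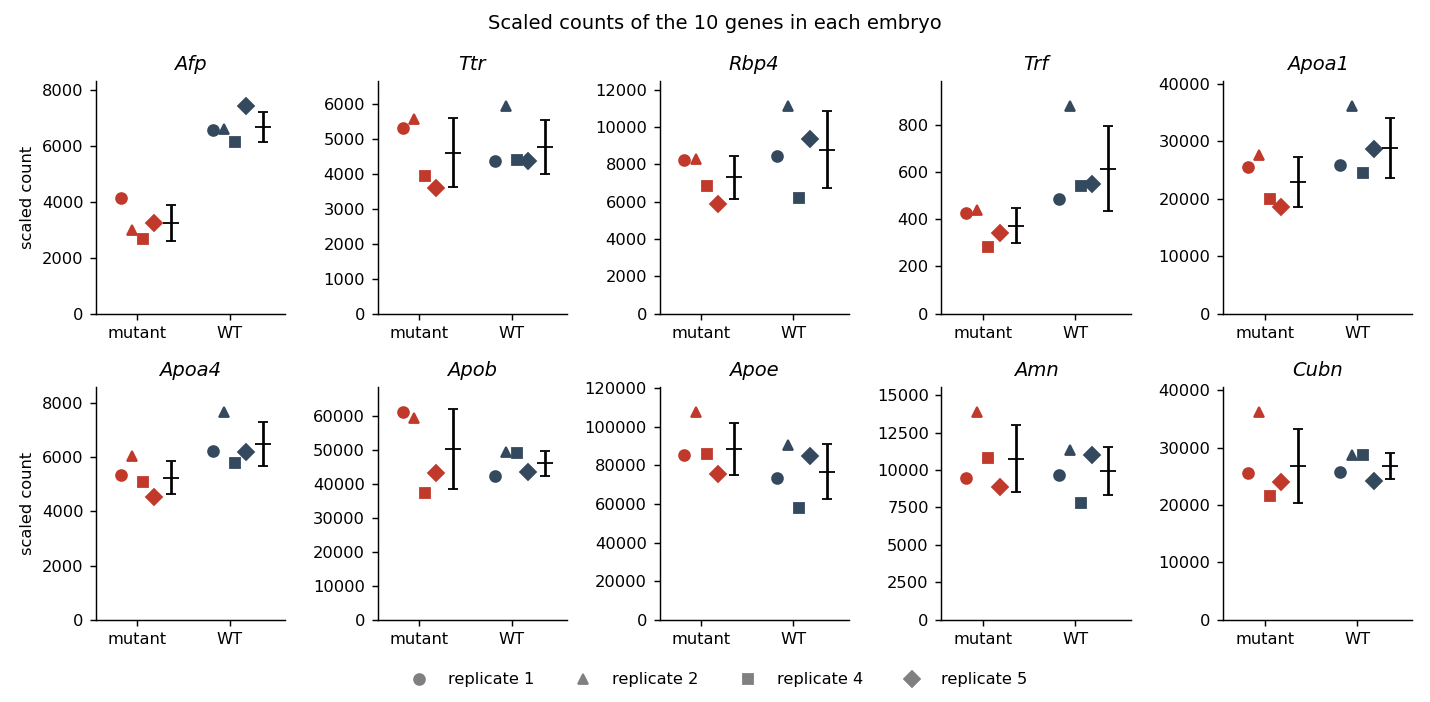
Scaled counts (vertical axes, from 0) of the 10 genes in each mutant and WT embryo, with a marker shape per replicate number and the mean and SD as a bar beside the points. Afp and Trf are the genes whose mutant and WT points do not overlap, and WT replicate 2 has the highest WT point in 9 of the 10 panels.

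Afp encodes alpha-fetoprotein, the main serum protein of the embryo. The gene (ENSMUSG00000054932.6) lies at chr5:90490737-90508907 on the plus strand of GRCm38. It had scaled counts of 4132, 2975, 2654 and 3229 in mutant replicates 1, 2, 4 and 5, against 6551, 6603, 6145 and 7424 in WT replicates 1, 2, 4 and 5. Every mutant embryo lay below every WT embryo. The log2 fold change was -1.06 (SE 0.13, 95% interval -1.34 to -0.77, limma adjusted p = 0.000849), lower in 4 of 4 mutants. All 20 alternative analyses gave the same call, with log2 fold changes from -1.18 to -0.93.

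Trf encodes transferrin, which carries iron in serum. The gene (chr9:103204001-103230444, minus strand of GRCm38) had 428, 438, 281 and 342 scaled counts in mutant replicates 1, 2, 4 and 5, against 485, 880.0, 539.7 and 549 in WT replicates 1, 2, 4 and 5. The genotypes did not overlap, but the gap between the highest mutant and the lowest WT embryo was small, and WT replicate 2 stood well above the other WT embryos. The log2 fold change of -0.70 (SE 0.22, 95% interval -1.19 to -0.21) missed the threshold with limma (adjusted p = 0.0579) and passed it with DESeq2 on recovered reads (adjusted p = 0.0132), with median centring (adjusted p = 0.0457) and with array weights (adjusted p = 0.0485). Without WT replicate 2 it was -0.51 (limma adjusted p = 0.103), and over the 20 alternatives the adjusted p ran from 0.0132 to 0.292. Exons of Trf overlap those of the annotated gene Gm20425 on the same strand over 2108 bp. Gm20425 is not among the genes measured, and how the counting handled reads there is not known.

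Ttr (transthyretin) carries thyroid hormone and binds Rbp4, the carrier of retinol, in serum. Ttr had 5313, 5560.3, 3942 and 3604 scaled counts in mutant replicates 1, 2, 4 and 5, against 4370.2, 5935, 4403 and 4375 in WT replicates 1, 2, 4 and 5. The genotypes overlapped throughout, with mutant replicates 1 and 2 above 3 of the 4 WT embryos and mutant replicates 4 and 5 below all of them. Its log2 fold change was -0.06 (95% interval -0.42 to 0.30, limma adjusted p = 0.835).

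Rbp4 (chr19:38116629-38125281, minus strand) had 8228, 8273, 6869 and 5877 scaled counts in mutant replicates 1, 2, 4 and 5, against 8474, 11139.5, 6229 and 9366 in WT replicates 1, 2, 4 and 5. Mutant values lay in the lower part of the WT range or under it, with a log2 fold change of -0.25 (95% interval -0.65 to 0.15, limma adjusted p = 0.388). The ratio of Ttr to Rbp4 scaled counts within a library was 0.626 ± 0.0424 in the mutants and 0.556 ± 0.105 in WT (SD, n = 4 each), a difference within the WT spread. The ratio of Afp to Ttr was 0.778, 0.535, 0.673 and 0.896 in mutant replicates 1, 2, 4 and 5, against 1.5, 1.11, 1.4 and 1.7 in WT replicates 1, 2, 4 and 5. No mutant embryo reached the lowest WT ratio, so the lower Afp level was also seen relative to Ttr in the same library. The ratio of Afp to Trf, by contrast, overlapped between the genotypes. It was 9.66, 6.79, 9.43 and 9.45 in mutant replicates 1, 2, 4 and 5, against 13.5, 7.50, 11.4 and 13.5 in WT replicates 1, 2, 4 and 5.

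Apoa1 and Apoa4 are apolipoproteins of high-density and triglyceride-rich particles and lie in 1 cluster on chromosome 9, Apoa1 at chr9:46228580-46230466 and Apoa4 at chr9:46240696-46243459, both on the plus strand of GRCm38. Apoa1 had 25552, 27692, 19974 and 18614 scaled counts in mutant replicates 1, 2, 4 and 5, against 25957, 36183, 24420.4 and 28764 in WT replicates 1, 2, 4 and 5. Mutant replicates 4 and 5 were below all WT embryos, and mutant replicates 1 and 2 were within the WT range. The log2 fold change was -0.33 (95% interval -0.68 to 0.02, limma adjusted p = 0.191).

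Apoa4 had 5325, 6021, 5092 and 4530.4 scaled counts in mutant replicates 1, 2, 4 and 5, against 6231, 7656, 5790.0 and 6195 in WT replicates 1, 2, 4 and 5. Mutant replicate 2 lay above the lowest WT embryo and the other 3 mutants lay below all WT embryos. The log2 fold change of -0.30 (95% interval -0.55 to -0.06) missed the threshold (limma adjusted p = 0.0937, 0.0496 to 0.398 over the alternatives), with the lowest value, past the threshold, without mutant replicate 2. The ratio of Apoa1 to Apoa4 was 4.36 ± 0.41 in the mutants and 4.44 ± 0.288 in WT, so the pair kept close to 1 ratio in all 8 libraries. Exons of Apoa4 overlap those of Gm47528 and Gm10680 on the opposite strand over 634 and 632 bp, and the cDNA kit does not mark strand.

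Apob encodes the structural protein of very-low-density and low-density lipoproteins. The gene (chr12:7977648-8016835, plus strand) had 61125, 59416, 37374 and 43201 scaled counts in mutant replicates 1, 2, 4 and 5, against 42331, 49248, 49161 and 43505 in WT replicates 1, 2, 4 and 5. Mutant replicates 1 and 2 were above all WT embryos, mutant replicate 4 was below all of them, and the 4 WT embryos lay close together. The log2 fold change was 0.10 (95% interval -0.25 to 0.44, limma adjusted p = 0.719). With mutant replicates 4 and 5 both left out, the libraries richest in transcripts of maternal decidua, it was 0.39 and passed the threshold (limma adjusted p = 0.0232, 0.0232 to 0.984 over the alternatives).

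Apoe (chr7:19696109-19699188, minus strand) is a ligand of lipoprotein receptors. It had 85357, 107546, 85785 and 75381 scaled counts in mutant replicates 1, 2, 4 and 5, against 73622, 90666, 58142 and 84581 in WT replicates 1, 2, 4 and 5. Mutant replicate 2 was the highest embryo and WT replicate 4 the lowest, and the groups overlapped. The log2 fold change was 0.21 (95% interval -0.12 to 0.55, limma adjusted p = 0.38). Macrophages also make Apoe. A list of 10 macrophage markers summed to 119.6 to 1479 scaled counts in the mutants and 133 to 1215 in WT, with Adgre1 at 0 in mutant replicate 1 and in 3 WT libraries. WT replicate 2 was the highest WT embryo for both that sum and Apoe, while among the mutants replicate 4 had the highest sum and replicate 2 the highest Apoe. The part of macrophages in the Apoe values was not tested.

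Amn (chr12:111271095-111276426, plus strand) had 9471, 13865, 10768 and 8844 scaled counts in mutant replicates 1, 2, 4 and 5, against 9652, 11320.4, 7799.7 and 11019.9 in WT replicates 1, 2, 4 and 5. The groups overlapped, with mutant replicate 2 above every other embryo (log2 fold change 0.10, 95% interval -0.25 to 0.46, limma adjusted p = 0.715). Cubn (chr2:13276338-13491813, minus strand) had 25611, 36169, 21504 and 24084 scaled counts in mutant replicates 1, 2, 4 and 5, against 25669.9, 28749.6, 28705 and 24208 in WT replicates 1, 2, 4 and 5. Here too mutant replicate 2 was the highest embryo, and the other 3 mutants lay within the WT range or under it (log2 fold change -0.02, 95% interval -0.35 to 0.30, limma adjusted p = 0.936). The ratio of Amn to Cubn was 0.405 ± 0.064 in the mutants and 0.374 ± 0.0763 in WT. Exons of Cubn overlap those of Gm13270 on the opposite strand over 368 bp.

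**Figure D2:**
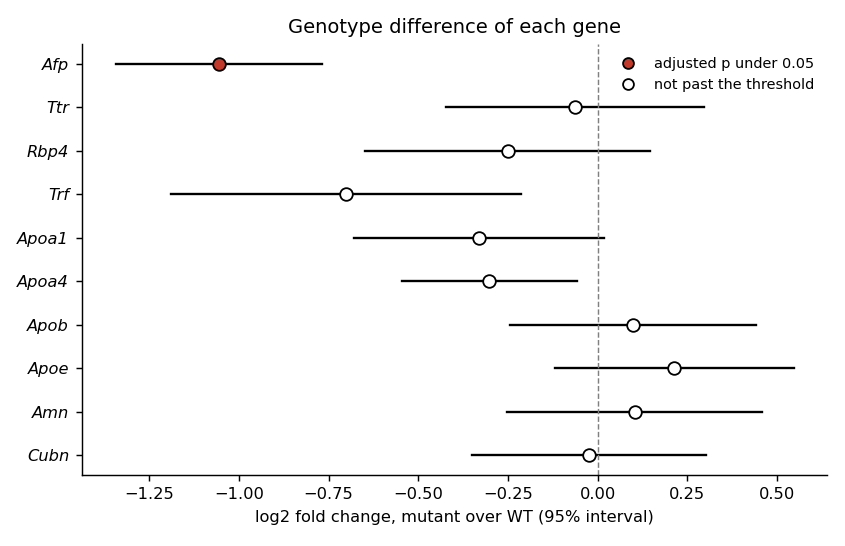
Log2 fold change of each of the 10 genes, mutant over WT, with its 95% interval from limma; a filled point marks an adjusted p under 0.05. Afp, at -1.06, is the filled point, and the intervals of 7 of the 9 open points include 0.

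Set per kilobase of merged exon, so that genes can be compared, Apoe was the highest in both genotypes, at 41402 ± 6345 scaled counts per kilobase in the mutants and 35899 ± 6675 in WT. Apoa1 came next, with 18574 ± 3524 in the mutants and 23326 ± 4224 in WT. Amn (5826 ± 1212 in the mutants, 5398 ± 871 in WT) and Rbp4 (5444 ± 862 in the mutants, 6554 ± 1520.5 in WT) did not differ from each other beyond their spread. Below them came Ttr (3883 ± 823 in the mutants, 4023 ± 655 in WT), Apob (3608 ± 847 in the mutants, 3306 ± 263 in WT) and Apoa4 (2888 ± 340.0 in the mutants, 3564 ± 449.9 in WT). Ttr was above Apoa4 in all 8 libraries, while Apob averaged above Apoa4 in the mutants and below it in WT. Neighbours among these 3, in each genotype's own order, lay within the larger of their SDs. Afp was at 964 ± 189 in the mutants and 1984 ± 159 in WT, and Cubn at 1797 ± 432 in the mutants and 1797 ± 152 in WT, so that Afp averaged below Cubn in the mutants and above it in WT. Trf was last at 112 ± 22.4 in the mutants and 185 ± 54.2 in WT. Lengths come from GENCODE M21 and count every annotated exon, so a gene with rarely used exons is set too low.

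Embryos of 1 genotype differed from each other in the same direction for most of the 10 genes. Mutant replicate 2 was the highest mutant for 8 of the 10 genes, and mutant replicate 5 the lowest for 6 and mutant replicate 4 for 4. WT replicate 2 was the highest WT embryo for 9 of the 10, and WT replicate 4 the lowest for 6. As shares of all scaled counts in a library, the 10 genes made up 0.739, 0.849, 0.64 and 0.603% in mutant replicates 1, 2, 4 and 5, against 0.641, 0.787, 0.601 and 0.698% in WT replicates 1, 2, 4 and 5. The coefficient of variation between embryos ran from 11.8% for Apoa4 to 24.0% for Cubn in the mutants, and from 7.95% for Apob to 29.3% for Trf in WT. The exceptions among the mutants were Afp and Apob, which were highest in mutant replicate 1. Mutant replicate 2 had the lowest ratio of Afp to the other genes. On the log2 scale Afp minus the mean of the other 9 genes was -1.46, -2.13, -1.82 and -1.49 in mutant replicates 1, 2, 4 and 5, against -0.74, -1.10, -0.75 and -0.65 in WT replicates 1, 2, 4 and 5.

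**Figure D3:**
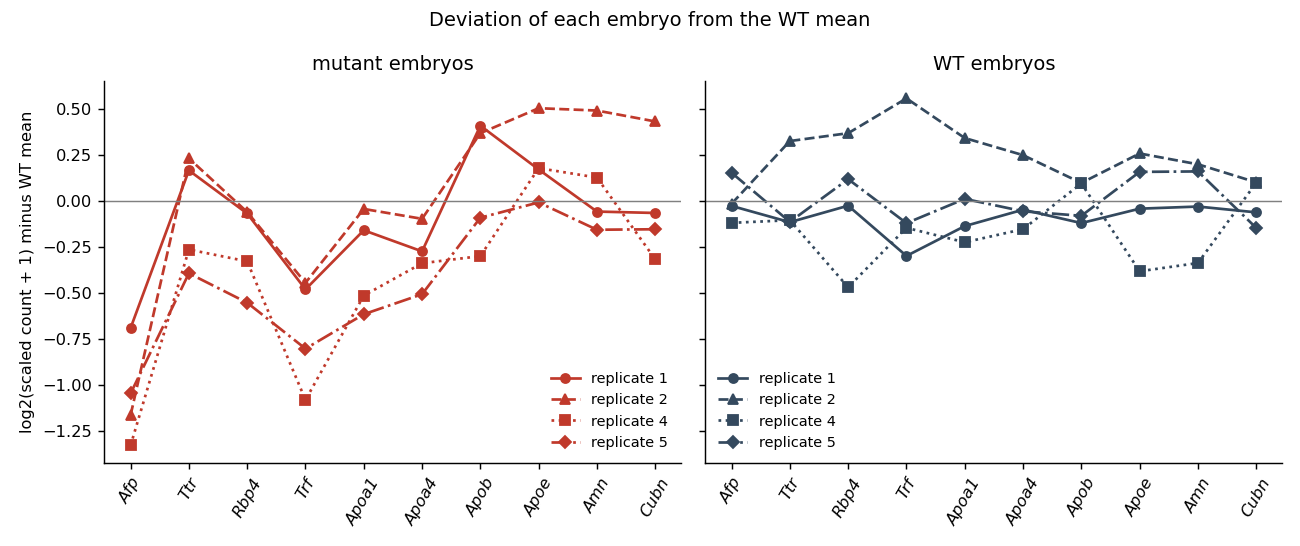
Log2(scaled count + 1) of each gene in each embryo minus the WT mean of that gene, with mutant embryos in the left panel and WT embryos in the right; lines join the genes of 1 embryo and carry no order. The 4 mutant lines lie between -1.33 and -0.69 at Afp and between -0.61 and 0.51 over the genes other than Afp and Trf, while WT replicate 2 lies above the WT mean for every gene but Afp.

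The long genes Apob and Cubn, with 13934 and 14935 bp of merged exon, were set against the shorter Amn and Rbp4, a choice made after their values were seen. The mean deviation of Apob and Cubn minus that of Amn and Rbp4, on the log2 scale and from each gene's mean over the 8 libraries, was 0.18, 0.13, -0.26 and 0.18 in mutant replicates 1, 2, 4 and 5, against -0.12, -0.24, 0.45 and -0.31 in WT replicates 1, 2, 4 and 5. Mutant replicate 4 was the lowest mutant and WT replicate 4 the highest WT embryo by this measure. Over all tested genes, the median deviation of 1355 genes with 10000 bp or more of exon minus that of 2735 genes under 2000 bp was 0.16, 0.03, -0.27 and 0.00 in mutant replicates 1, 2, 4 and 5, against 0.08, -0.14, 0.18 and -0.07 in WT replicates 1, 2, 4 and 5. The same 2 libraries, mutant replicate 4 and WT replicate 4, were at the ends of that range. For Apob and Cubn against Amn and Rbp4 the lowest embryo was instead WT replicate 5, at -0.31. WT replicate 1 had opposite signs in the 2 measures. The part of exon length in the spread of the 10 genes was not tested.

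Other genes of the visceral endoderm were read from lists chosen for the tissue. A list of 15 markers that leaves out the 10 genes, among them the transcription factor Hnf4a and the lipid transfer gene Mttp, had 0 members higher and 0 lower with limma, where 1 was higher and 2 were lower at an unadjusted p under 0.05. With edgeR 0 passed, and with DESeq2 1 was higher. In limma fits with libraries left out, 2 were lower without mutant replicate 2. There was 1 higher without mutant replicate 1, without mutant replicate 5, and without both mutant replicates 4 and 5. The list's median log2 fold change was 0.04. Its summed scaled count was 139834, 175942, 137425 and 129383 in mutant replicates 1, 2, 4 and 5, against 141599, 160678, 139328 and 139103 in WT replicates 1, 2, 4 and 5. Replicate 2 was thus the highest embryo of each genotype for these markers as it was for the 10 genes. All 15 were detected in every library of both genotypes, the lowest being Foxa1.

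Of 15 regulators of the visceral endoderm, 2 were higher and 1 was lower in the mutants. Foxa2, a forkhead factor of endoderm, fell to 734 ± 92.8 scaled counts in the mutants, against 1125 ± 75.3 in WT (log2 fold change -0.62, SE 0.11, limma adjusted p = 0.00579), without overlap. The transcriptional repressor gene Prdm1 had 730.5 ± 217 in the mutants and 378 ± 87.1 in WT (limma adjusted p = 0.0282), and Tead1, a transcription factor of the Hippo pathway, had 784 ± 58.1 in the mutants and 568 ± 83.6 in WT (limma adjusted p = 0.0368). The call of Prdm1 was lost without mutant replicate 4 or 5 or WT replicate 2, 4 or 5, and that of Tead1 without any single library but WT replicate 4 (adjusted p 0.0508 to 0.0837 in these fits). Tead1 also lost its call with median centring (adjusted p = 0.0533) and quantile normalization (adjusted p = 0.0642), which left 1 regulator higher, and with edgeR 3 were higher and with DESeq2 4. Hnf4a (4431 ± 935 in the mutants, 3916 ± 413 in WT), Gata4 (8586 ± 2033 in the mutants, 8572 ± 1735 in WT) and Sox17 (5065 ± 825 in the mutants, 4273 ± 288 in WT) did not pass the test.

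Of 21 tested genes in a list of other proteins of this tissue, mostly secreted, 3 were higher and 0 lower in the mutants with limma, and 2 were lower at an unadjusted p under 0.05 (edgeR and DESeq2 called 0 lower, and 1 was lower without mutant replicate 2). Npc2, a cholesterol-binding protein of lysosomes that is also secreted, rose to 5059.9 ± 385 scaled counts in the mutants, against 3778 ± 206 in WT (log2 fold change 0.42, SE 0.07, limma adjusted p = 0.00502). The growth factor gene Igf2 had 3889.9 ± 1102 in the mutants and 2299.9 ± 90.9 in WT (limma adjusted p = 0.0231), a call lost without mutant replicate 2 or WT replicate 1, 4 or 5 (adjusted p 0.0514 to 0.0634). Apolipoprotein genes of this list did not pass, among them Apoc2 with 7585 ± 1333 in the mutants and 9075 ± 251 in WT, and Apom with 8318 ± 1098 in the mutants and 7290.0 ± 440.1 in WT.

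Of 20 receptors and partners of the 10 genes, Cubn and Amn included, 2 were higher and 1 was lower in the mutants. Both higher genes, Lrp8 and Vldlr, encode receptors of the LDL receptor family that bind Apoe. Lrp8 had 1518 ± 271 scaled counts in the mutants and 692 ± 140.0 in WT (log2 fold change 1.14, SE 0.17, limma adjusted p = 0.00228). Vldlr had 577 ± 105 in the mutants and 200.4 ± 79.3 in WT (log2 fold change 1.61, SE 0.31, limma adjusted p = 0.00841). Abcg1, a cholesterol exporter, was low in both genotypes and fell to 8.02 ± 6.88 in the mutants, against 79.9 ± 25.4 in WT (log2 fold change -3.36, SE 0.49, limma adjusted p = 0.00218).

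Several partners of single members of the 10 did not pass the test. Lrp2 (megalin), which works with cubilin, had 3969 ± 819 scaled counts in the mutants and 5259.9 ± 764 in WT (limma adjusted p = 0.094). Its adaptor Dab2 had 54748 ± 8699 in the mutants and 56983 ± 5104 in WT. The transferrin receptor gene Tfrc had 6215 ± 776 in the mutants and 4771 ± 782 in WT (limma adjusted p = 0.0736), and Mttp, which loads lipid onto Apob, had 12258 ± 2023 in the mutants and 12187 ± 662 in WT. Stra6, a receptor for Rbp4, varied widely, at 1053 ± 512 in the mutants and 879.6 ± 598 in WT.

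Of 24 tested genes of apical uptake and lysosomes, again with Cubn and Amn among them, 2 were higher and 1 was lower. Lamp2, a lysosomal membrane protein, had 4083 ± 209 scaled counts in the mutants and 3283 ± 262 in WT (limma adjusted p = 0.0208). The scaffold gene Pdzk1 had 2142 ± 421 in the mutants and 1541 ± 38 in WT (limma adjusted p = 0.0357), and Fcgrt, the neonatal Fc receptor, 303 ± 58.8 in the mutants and 472 ± 85.6 in WT (limma adjusted p = 0.0456). Calls were lost without WT replicate 1 or 5 for Lamp2, without mutant replicate 4 or any WT replicate for Pdzk1, and without mutant replicate 1, 2 or 5 or WT replicate 1, 2 or 5 for Fcgrt (adjusted p 0.0561 to 0.114). With median centring Lamp2 (adjusted p = 0.0998) and Pdzk1 (adjusted p = 0.093) lost their calls and the list had 0 higher and 2 lower, and Fcgrt lost its call with edgeR (adjusted p = 0.0522). Of 12 tested chromosomal neighbours of the 10 genes, 0 passed with limma or edgeR, 2 were lower with DESeq2, and 4 were lower at an unadjusted p under 0.05. In other limma fits, 2 were lower with median centring, with array weights and without mutant replicate 2, and 1 without mutant replicate 1 or 5. The 13 measured neighbours summed to 37062 to 44665 scaled counts in the mutants and 47879 to 49049 in WT, without overlap. Gene by gene, 2 of the 12 tested had no overlap, beside 22.4% of all tested genes. Their median log2 fold change was -0.008. Tomm40, the most abundant neighbour, lies beside Apoe, encodes a mitochondrial import pore, and had 12934 ± 803 in the mutants and 14752 ± 366 in WT (limma adjusted p = 0.0508). The cluster neighbours Apoc3 of Apoa1 (96.4 ± 25.3 in the mutants, 85.5 ± 20.7 in WT) and Apoa5 (207 ± 109 in the mutants, 189.9 ± 34 in WT) were both low.

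The anterior part of the visceral endoderm is marked by a set of signalling antagonists and transcription factors, several of which the epiblast or mesoderm also expresses. Of 9 such genes, 4 were lower and 1 was higher. Otx2 fell to 232 ± 206 scaled counts in the mutants, against 3473 ± 276 in WT (limma adjusted p = 0.00619), and is also in the epiblast list. Cer1, Lefty1 and Lhx1 fell as well. The WNT antagonist gene Dkk1 rose to 8001 ± 2428 in the mutants, against 1537 ± 507 in WT (limma adjusted p = 0.000958). The Lhx1 call was lost without mutant replicate 2 or 4 or WT replicate 1, 4 or 5 (adjusted p 0.0588 to 0.109). Over the 6 libraries that carry Y-linked transcripts, the 4 missed the threshold (adjusted p 0.0605 to 0.0992) with log2 fold changes at least as large in size as over all 8, from -5.97 for Lefty1 to -2.01 for Cer1, and Dkk1 was still higher.

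Among markers of other tissues, the epiblast and decidua sums separated the genotypes, while the other sums overlapped. The 9 epiblast markers summed to 29722 to 42178 scaled counts in the mutants and 122878 to 135162 in WT, and all 9 fell, with 6 past the threshold without WT replicate 4 and 4 over the libraries that carry Y-linked transcripts. The 12 maternal decidua markers summed to 17403, 5700.3, 46701 and 26260.0 in mutant replicates 1, 2, 4 and 5, against 2562, 2275, 698 and 683 in WT replicates 1, 2, 4 and 5, with Lum at 0 in all WT libraries and 6 of 11 tested members higher. That count was 4 without mutant replicate 4 or 5 or WT replicate 4 or 5, 3 without both mutant replicates 4 and 5, and 2 over the libraries that carry Y-linked transcripts. The 6 were Col1a1, Acta2, Pgr, Des, Hand2 and Col3a1, several of which mesoderm also expresses. Prl8a2, a prolactin family gene of the decidua, had 134.7, 479, 6283 and 6056 scaled counts in mutant replicates 1, 2, 4 and 5, against 1129, 793, 21.7 and 79.3 in WT replicates 1, 2, 4 and 5. Mutant replicates 4 and 5, with the most decidua transcripts, were also the mutants with the lowest sums of the 10 genes. The part of this in the results on the 10 genes was not tested. Without both of these libraries the log2 fold change of Afp was -0.93 (limma adjusted p = 0.00848), and the decidua sums of the remaining mutants, 17403 and 5700.3, were still above all WT sums. Parietal endoderm markers, 11 in all, summed to 74575 to 93768 in the mutants and 61905 to 213916 in WT, trophoblast markers to 23501 to 50913 in the mutants and 21083 to 37252 in WT, and erythroid markers to 3444 to 8627 in the mutants and 273 to 4826 in WT. Of 11 parietal endoderm markers Lama1 passed the threshold, lower (limma adjusted p = 0.0489). The list's median log2 fold change was -1.14, and 5 were lower and 1 higher at an unadjusted p under 0.05. With edgeR 3 were lower, with DESeq2 4, and with limma over the libraries that carry Y-linked transcripts 4. With a pseudocount of 0.5 the count was 0. It was also 0 without any 1 library other than WT replicate 5, and 7 were lower without WT replicate 5. Of 10 tested trophoblast markers Cdx2 and Hand1, which mesoderm also expresses, were higher, and the list's median log2 fold change was -0.21. Of 9 nascent mesoderm markers Msgn1 and Tbx6 were higher and Fgf8 lower, with 4 higher without WT replicate 2 and 1 higher without mutant replicates 4 and 5. With limma, 0 of 4 erythroid and 0 of 6 macrophage markers passed (4 and 0 at an unadjusted p under 0.05). WT replicate 2, the highest WT embryo for most of the 10 genes, had the highest parietal endoderm sum and the lowest nascent mesoderm sum, 9283, against 15322 to 35195 in the mutants and 17705 to 22874 in the other WT embryos.

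**Figure D4:**
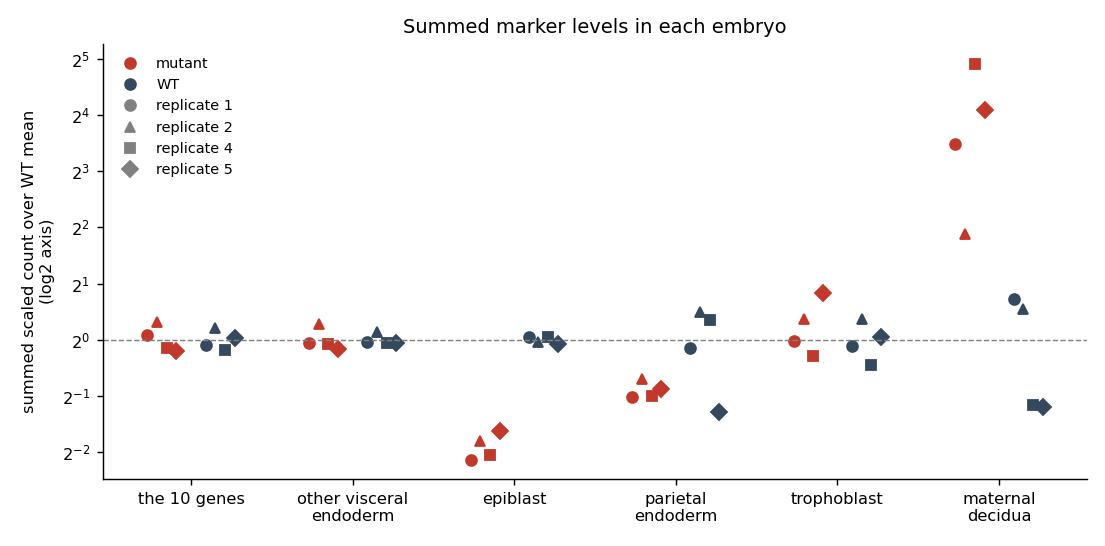
Summed scaled count of each marker list in each embryo, divided by the WT mean of that list, on a log2 axis, with mutant points left of WT points and a marker shape per replicate number. The 10 genes lie between 0.87 and 1.24 and the other visceral endoderm markers between 0.891 and 1.21 in the mutants, while epiblast markers lie between 0.229 and 0.325 and decidua markers between 3.67 and 30.0.

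The tested genes whose profile over the 8 libraries lay nearest to the mean profile of the 10 were Car7, Pdia4, Mia2, Qprt, Tdh and Sec14l2, among 11331 genes with a mean of at least 100 scaled counts. Nearness was the root mean square difference between centred log2 profiles, and it ran from 0.0631 for Car7 to 0.0956 for Sec14l2. Car7, which encodes a carbonic anhydrase, had 4435, 4933, 3633 and 3921 scaled counts in mutant replicates 1, 2, 4 and 5, against 4425, 5769.6, 4174 and 4511 in WT replicates 1, 2, 4 and 5. Its highest embryo in each genotype was replicate 2, as for most of the 10 genes, and none of the 6 passed the threshold between the genotypes.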

How the data were processed

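Total RNA from each embryo went through 12 cycles of SMART-Seq v4 amplification and KAPA Hyper Prep library construction; this comes from the labels. The submitters' processing notes name the mm10 build, DESeq, HTSeq 0.5.3, STAR 2.5.0a and cutadapt 1.6; settings and annotation are not stated there. The deposited values are a signal, namely counts that the authors scaled by library size factors. In every column 100% of values were whole multiples of 1 step within 0.01 of a read, so reads were recovered for edgeR, which called 1261 genes higher and 1169 lower, and for DESeq2 (1832 and 1606). Amplified reads carry no molecular identifiers.

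The test was limma 3.58.1 (R 4.3.3, trended prior, two-sided) after adding a pseudocount of 1 and taking log2, over 15600 genes that reached 10 scaled counts in 4 or more libraries, with Benjamini-Hochberg adjustment and a threshold of 0.05; intervals and fold changes are on that scale. Leaving out libraries kept the same genes. Alternatives were edgeR 4.0.16, DESeq2 1.42.0, other pseudocounts, filters, scalings, weights, a replicate block and left-out libraries. The script was tested on simulated data. No replicates agreed within sampling noise (chi-square per degree of freedom 18.9 to 83.2). Gene positions and exon lengths come from GENCODE M21 by gene ID. The 10 genes and all lists were chosen with earlier results of these data known. Named besides the 10 are list members past the threshold, at most 6 per list, the 6 nearest profiles and Axin1 and Axin2; others, such as the partners that did not pass and the length classes, were picked after their values were seen. Some list members are not reported here.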

Additional observations from a re-analysis of the deposited data

Results flagged for a closer look

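Ttr in WT replicate 2, at 5935 scaled counts, stood apart from the other 3 WT embryos, which lay between 4370.2 and 4403. Trf in WT replicate 2, at 880.0 scaled counts, likewise stood above the other WT embryos at 485 to 549. In both cases the gap to the next embryo exceeded Dixon's 95% limit for 4 samples, which chance passes in about 1 group in 20. The limit was applied at both ends to each of the 10 genes in each genotype, so flags can arise by chance. Both flags lie in the same library.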

How the results depend on the processing

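Afp kept its direction and its call in all 20 alternatives (log2 fold change -1.18 to -0.93, adjusted p 5.3e-12 to 0.019). Apoa1, Apoe and Rbp4 kept their direction and stayed outside the threshold in all 20. The count of the 10 genes past the threshold was 1 lower and 0 higher. It became 2 lower with median centring, array weights and DESeq2, each adding Trf, and 1 to 2 lower with a single library left out, the second being Apoa4. Without mutant replicates 4 and 5, 1 was higher, Apob.

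Changes of sign came from genes near 0. Ttr had a log2 fold change of 0.045 over the libraries that carry Y-linked transcripts and 0.20 with mutant replicates 4 and 5 left out. Cubn had 0.025 with quantile normalization, 0.0012 with DESeq2 and 0.19 without mutant replicates 4 and 5. With a single library left out the range was -0.16 to 0.047 for Ttr, -0.18 to 0.073 for Cubn, -0.027 to 0.19 for Amn and -0.0055 to 0.23 for Apob. The cause was not tested.

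Over all tested genes, 1253 were higher and 1178 lower. Libraries carrying Y-linked transcripts gave 528 and 493, and the set without mutant replicates 4 and 5 gave 707 and 723; both have fewer samples. A single library left out gave 853 to 1295 higher and 734 to 1144 lower, with 734 without WT replicate 1 and 743 without WT replicate 4. Median centring gave 1029 higher and 1590 lower. The summed level of the 10 genes, mutant over WT, was 1.02, and 0.982 per kilobase.

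Across the tested genes as a whole, the replicate numbers did not pair the embryos. Same-numbered libraries had correlations of their deviations from -0.193 to -0.0357, and no mutant library correlated best with the WT library of its own number. With the number as a block 910 genes were higher and 789 lower, and Afp stayed past the threshold (adjusted p = 0.00423). For each of the 10 genes the block lowered the SE, for Ttr from 0.16 to 0.104 and for Apoa4 from 0.108 to 0.0732. Apoa4 then had a limma adjusted p of 0.0501 and Apoa1 of 0.092. Whether the numbers pair the embryos for these genes was not tested. Under the block 0 regulators were higher (Prdm1 adjusted p = 0.0891, Tead1 0.0607), apical uptake and lysosome genes had 1 higher and 0 lower, parietal endoderm markers 0 lower and decidua markers 4 higher.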
